A study of Mus musculus with 8 samples.

Results

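The neuronal nicotinic acetylcholine receptor genes were followed in ventral midbrain tissue (the ventral mesencephalic area) of mice: Chrna3, Chrna4, Chrna5, Chrna6, Chrna7, Chrnb2, Chrnb3 and Chrnb4. They were chosen by name, as the subunit genes of neuronal receptors on a fixed list, and all 8 were found among the 15274 genes of the deposited table. The study compared 4 samples of Ercc1 delta/+ mice with 4 samples of wild type mice, all on a mixed FVB:C57BL/6J background. Ercc1 delta/+ animals have 1 mutant and 1 wild type copy of a nucleotide excision repair gene in every tissue, and both groups received no treatment that the labels name. The labels give neither age nor sex. Whether every sample came from its own animal is not stated either, and p-values therefore describe the spread of these 8 samples, part of which could be technical.

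Nicotinic receptors are cation channels built of several subunits around a pore that acetylcholine or nicotine opens. In the brain the alpha4 and beta2 subunits make the most widespread type and alpha7 forms channels of its own. The alpha6 and beta3 subunits join beta2, often with alpha4, in dopaminergic neurons of the midbrain. The alpha3 and beta4 subunits make the main type of the medial habenula, whose axons end in the interpeduncular nucleus at the ventral face of the midbrain, and alpha5 is an accessory subunit that needs partners.

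Library totals ran from 18268373 to 31197522 counts, and 3 of the 4 shallowest libraries were mutant (replicates 1, 2 and 4), the other being wild type replicate 2. Ercc1 had a log2 fold change of -0.34 (SE 0.10), with every mutant library below every wild type library, and missed the threshold in edgeR's quasi-likelihood test (adjusted p = 0.114). Markers of the tissue were present in all 8 libraries: Th, which encodes the rate-limiting enzyme of dopamine synthesis, lay between 32.0 and 67.5 CPM (counts scaled to a common library size, with TMM factors). RNA of neighbouring regions was present too and differed between libraries. The serotonin marker Tph2 ran from 0.435 to 57.3 CPM. Summed over 9 cortical, hippocampal and thalamic markers the level was 742 to 1087 CPM in Ercc1 delta/+ and 361 to 827 CPM in wild type, with 7 log2 fold changes positive and 2 negative (Prkcd -0.35 and Lef1 -0.27). Summed over 6 choroid plexus markers it was 67.5 to 1119 CPM in Ercc1 delta/+ and 53.4 to 145 CPM in wild type. Summed over 6 hypothalamic markers, all 6 with negative log2 fold changes, it was 21.8 to 415 CPM in Ercc1 delta/+, lowest in replicate 2, and 303 to 727 CPM in wild type. The part of these markers in the results below was not tested except where a value is given.

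Chrna4 and Chrnb2 had the highest transcript levels of the 8 subunits in both genotypes. On a scale of CPM per kilobase of transcript, the level of Chrna4 was 23.9 ± 3.67 in Ercc1 delta/+ and 26.4 ± 6.08 in wild type (SD, n = 4 each), and that of Chrnb2 was 20.1 ± 2.38 in Ercc1 delta/+ and 21.7 ± 2.17 in wild type. Of the summed level of the 8 subunits per kilobase, Chrna4 took 39.4% in Ercc1 delta/+ and 38.9% in wild type, and Chrnb2 took 33.3% in Ercc1 delta/+ and 32.3% in wild type. The level of Chrna7 per kilobase followed, with 7.04 ± 1.12 in Ercc1 delta/+ and 6.08 ± 0.475 in wild type, then that of Chrna6 with 3.84 ± 1.50 in Ercc1 delta/+ and 4.53 ± 0.837 in wild type.

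The remaining subunits lay lower. Chrna3 had a level per kilobase of 1.78 ± 0.819 in Ercc1 delta/+ and 3.03 ± 0.966 in wild type, and Chrnb3 had 1.94 ± 0.430 in Ercc1 delta/+ and 2.63 ± 0.431 in wild type. Chrnb4 had 0.996 ± 0.784 in Ercc1 delta/+ and 2.19 ± 1.01 in wild type, and Chrna5 had 0.949 ± 0.640 in Ercc1 delta/+ and 0.854 ± 0.192 in wild type (SD, n = 4 each). Only the step between Chrnb2 and Chrna7 separated neighbours in this order without overlap of their ranges over the 8 libraries. The place of Chrnb3 depends on its transcript model: the row of highest count has 4589 bases, while its second row, of 2255 bases, gave 3.92 ± 0.884 in Ercc1 delta/+ and 5.30 ± 0.872 in wild type.

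**Figure D1:**
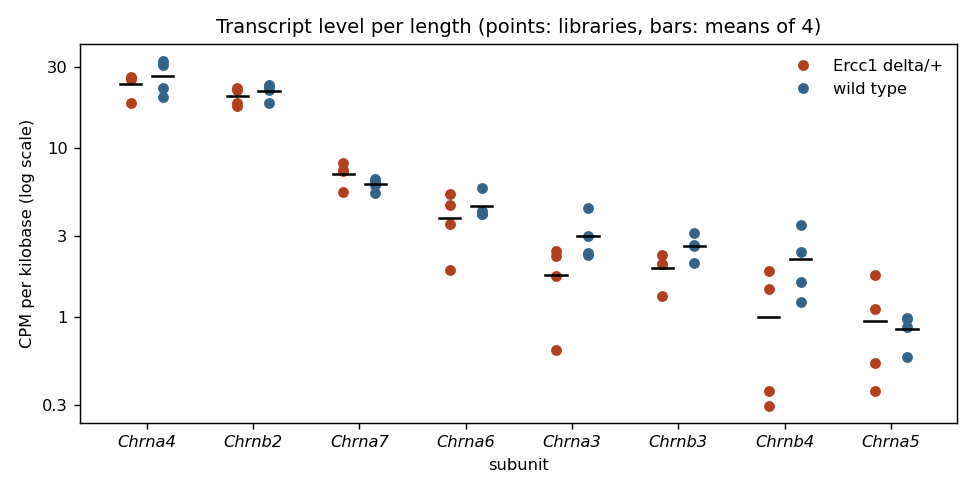
Level of each subunit in CPM per kilobase of transcript (vertical axis, log scale), with 1 point per library, Ercc1 delta/+ left of wild type, and a bar at the mean of 4. Chrna4 and Chrnb2 lie above 17.7 in every library, and the other 6 subunits lie at 8.10 or lower.

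No subunit passed the test of a difference between the genotypes. All 8 passed the filter on low counts and 0 had an adjusted p below 0.05 in edgeR's quasi-likelihood test with Benjamini-Hochberg adjustment, where 0.0467% of the 14989 genes tested did (0.0133% higher and 0.0334% lower in Ercc1 delta/+). At an unadjusted p below 0.05 there was 1 subunit, Chrnb3, against 18.6% of all genes tested. With DESeq2 0 of 8 passed after adjustment and 2 before it, against 1028 and 2912 of the 14989 genes in the fit. The groups overlapped for all 8 subunits, while 12% of all genes tested had groups that did not overlap. The log2 fold change was negative for 6 subunits and positive for 2, with a median of -0.19, and 50.5% of all genes tested were negative with a median of -0.003. Because the tissue is a mixture of cells, fewer cells of a type and less RNA per cell cannot be told apart in any of these values.

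**Figure D2:**
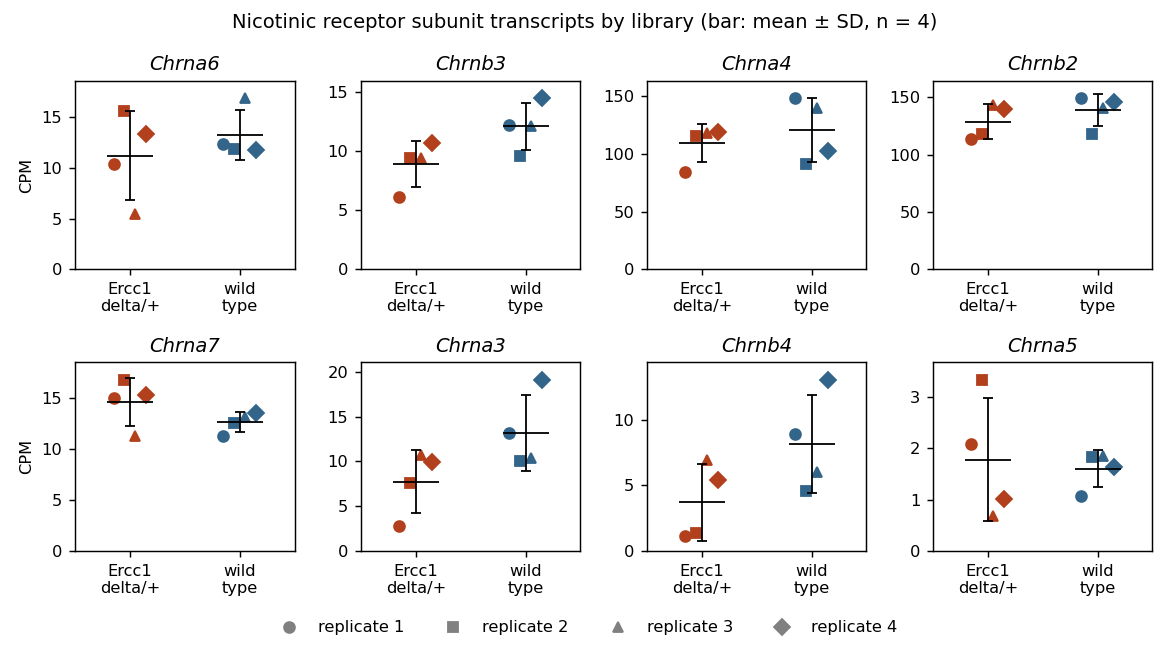
Level of each subunit in CPM (vertical axes from 0, scaled per panel), with 1 symbol per library, Ercc1 delta/+ left of wild type, and the mean ± SD of 4 libraries. Groups overlap in every panel, and the widest spread relative to the level is that of Chrnb4, from 1.11 to 13.1 CPM.

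The alpha6 subunit gene Chrna6 (RefSeq NM_021369), known in the midbrain chiefly from dopaminergic neurons, had 10.3, 15.6, 5.47 and 13.3 CPM in Ercc1 delta/+ replicates 1 to 4, against 12.3, 11.8, 16.8 and 11.8 CPM in wild type replicates 1 to 4. The low library was mutant replicate 3, and the other mutant libraries lay within or near the wild type range. The log2 fold change was -0.25 (SE 0.28, 95% interval -0.88 to 0.38, edgeR adjusted p = 0.669). Leaving out each library in turn gave -0.45 (without mutant replicate 2) to -0.02 (without mutant replicate 3), with -0.11 without wild type replicate 3 and -0.35 without mutant replicate 4.

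The partner gene Chrnb3 (NM_173212), whose subunit helps to assemble and place alpha6 receptors, had 6.09, 9.41, 9.38 and 10.7 CPM in Ercc1 delta/+, against 12.2, 9.62, 12.1 and 14.5 CPM in wild type. Mutant replicate 4 lay above wild type replicate 2, and the other 3 mutant libraries lay below all wild type libraries. Chrnb3 averaged 8.89 ± 1.97 CPM in Ercc1 delta/+ (SD, n = 4) and 12.1 ± 1.98 CPM in wild type (SD, n = 4). Its log2 fold change was -0.45 (SE 0.18, 95% interval -0.86 to -0.04), with an unadjusted p of 0.0362 and an adjusted p of 0.237 in edgeR's quasi-likelihood test, and the adjusted p ran from 0.164 to 0.738 over the alternatives.

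Chrna6 followed the dopaminergic neuron markers from library to library, and for Chrnb3 this was not found. The dopaminergic list holds 15 genes, among them Th, the dopamine transporter gene Slc6a3 and the vesicular transporter gene Slc18a2, and all 15 were tested; 0 passed, 12 had a negative log2 fold change and the median was -0.09. Summed over the list the level was 343 to 597 CPM in Ercc1 delta/+ and 456 to 663 CPM in wild type. Over the 8 libraries Chrna6 correlated with the mean of this list at a Pearson r of 0.939 (exact permutation p = 0.00122, 0.0253 adjusted over 104 relations of 8 subunits with 13 marker lists) and a Spearman rho of 0.952 (exact permutation p = 0.00114, adjusted 0.0297). Without the 2 libraries farthest from the median of the list r was 0.763, and with the genotype means removed it was 0.943. For Chrnb3 the same r was 0.315 (exact permutation p = 0.432, adjusted 0.599) and rho 0.524 (exact permutation p = 0.197, adjusted 0.393), and the difference between both correlations was not tested.

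Mutant replicate 3 was the library lowest in both Chrna6 and the dopaminergic list, with Th at 32.0 CPM. Set against the mean of the dopaminergic markers, the log2 ratio of Chrna6 was -0.30, 0.04, -0.81 and -0.31 in Ercc1 delta/+ and -0.21, -0.12, -0.06 and -0.15 in wild type, in the order of the replicates. The difference of -0.21 was within the spread (exact two-sided permutation p = 0.343, 0.571 adjusted over 5 ratios, where 4 against 4 libraries cannot go below 0.0286). The log2 ratio of Chrnb3 to the markers was -1.05, -0.69, -0.04 and -0.61 in Ercc1 delta/+ and -0.23, -0.42, -0.53 and 0.15 in wild type, a difference of -0.34 (exact two-sided permutation p = 0.229, adjusted 0.571). The log2 ratio of Chrna6 to Chrnb3 differed by 0.13 between the genotypes (exact two-sided permutation p = 0.771, adjusted 0.914).

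Chrna6 and Chrnb3 are next to each other on chromosome 8 in the RefSeq annotation, yet their levels were only loosely related over the 8 libraries (Pearson r = 0.297, exact permutation p = 0.415, 0.532 adjusted over 28 pairs of subunits; rho = 0.381, exact permutation p = 0.360, adjusted 0.480; r without the 2 farthest libraries 0.309). Mutant replicate 3 shows the difference: it was the lowest of the 8 libraries for Chrna6 and stood in the middle of its group for Chrnb3. The genes most like Chrna6 by Pearson r of log2 CPM over the 8 libraries, of 14180 genes with a mean of at least 1 CPM, were Aldh1a7 (0.942), Th (0.934) and Gch1 (0.923). Th is 1 of the 15 dopaminergic markers, so its rank is not separate from the relation with their mean. In this search every subunit had a gene at an r of 0.942 or higher. Aldh1a7 is a close copy of the aldehyde dehydrogenase gene Aldh1a1, so reads may be shared, and Gch1 encodes the enzyme that starts synthesis of the cofactor of tyrosine hydroxylase. For Chrnb3 the most alike genes were Sdsl (0.987), Fuca2 (0.986) and Rp9 (0.968).

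Chrna4 (NM_015730), which encodes the principal alpha subunit of the widespread high-affinity nicotine receptor, had 84.2, 116, 118 and 119 CPM in Ercc1 delta/+, against 148, 91.4, 140 and 102 CPM in wild type. Mutant replicate 1 was the lowest of all 8, and the other mutant libraries lay inside the wild type range. Chrna4 had a log2 fold change of -0.14 (SE 0.17, 95% interval -0.53 to 0.25, edgeR adjusted p = 0.698), and it was 0.04 once depth (the 4 shallowest libraries against the rest) was added to the fit.

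Its partner Chrnb2 (NM_009602), the beta subunit shared by most brain receptors of this family, had 113, 118, 143 and 140 CPM in Ercc1 delta/+, against 149, 118, 141 and 146 CPM in wild type. It was the steadiest of the 8 subunits, with the highest library 1.32 times the lowest. Its log2 fold change was -0.11 (SE 0.10, 95% interval -0.34 to 0.13, edgeR adjusted p = 0.609), and 0.02 with the same depth term. Chrnb2 overlaps its neighbour Adar in the annotation and the treatment of strand in counting is not given, so a share of its reads is uncertain.

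Between Chrna4 and Chrnb2 the log2 ratio of CPM was -0.43, -0.02, -0.28 and -0.24 in Ercc1 delta/+ and -0.01, -0.37, -0.01 and -0.51 in wild type. The groups overlapped, and the difference was -0.02 (exact two-sided permutation p = 0.914, adjusted 0.914). Over the 8 libraries these subunits had a Pearson r of 0.714 (exact permutation p = 0.0577, adjusted 0.177) and a rho of 0.643 (exact permutation p = 0.0962, adjusted 0.245), and r was 0.252 without the 2 farthest libraries, so the relation rests on those. The genes most like Chrna4 were 1700017B05Rik (0.969), Rbms3 (0.967) and Limk2 (0.967), and for Chrnb2 they were Lmx1a (0.980), Rabl2 (0.980) and Wnt3 (0.977). Lmx1a, a transcription factor gene of dopaminergic neurons, had 2.04 to 3.48 CPM in Ercc1 delta/+ and 2.23 to 3.66 CPM in wild type. With the dopaminergic list as a whole, which holds Lmx1a, Chrnb2 had an r of 0.031 (exact permutation p = 0.942, adjusted 0.970) and a rho of 0.071 (exact permutation p = 0.882, adjusted 0.927).

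Chrna7 (NM_007390), whose subunit forms calcium-permeable channels without partners, had 15.1, 16.8, 11.3 and 15.3 CPM in Ercc1 delta/+, against 11.3, 12.6, 13.2 and 13.5 CPM in wild type. In 3 mutant libraries it lay above all wild type libraries, and mutant replicate 3 stood at the low end. Chrna7 had a log2 fold change of 0.21 (SE 0.13, 95% interval -0.08 to 0.49, edgeR adjusted p = 0.416). The genes most like it were Slc9a2 (0.951), Klhl42 (0.950) and Fat4 (0.938).

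**Figure D3:**
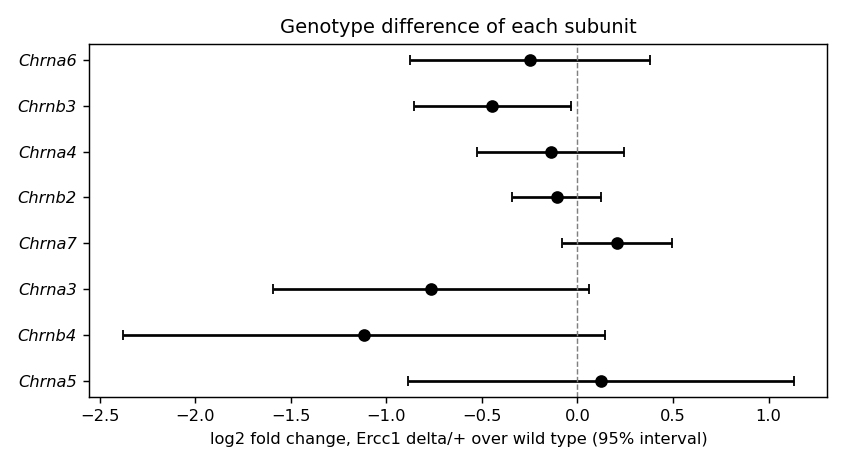
Log2 fold change of each subunit, Ercc1 delta/+ over wild type (horizontal axis), with its 95% interval from edgeR's quasi-likelihood fit of 4 against 4 libraries. The interval of Chrnb3 (-0.86 to -0.04) leaves out 0 without adjustment for the number of genes, and the intervals of the other 7 hold it.

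Chrna3 (NM_145129) and Chrnb4 (NM_148944), subunits of the habenular receptor, had the most negative log2 fold changes and the widest spreads over the 8 libraries. Chrna3 had 2.79, 7.59, 10.7 and 9.93 CPM in Ercc1 delta/+, against 13.2, 10.1, 10.4 and 19.2 CPM in wild type. Chrnb4 had 1.11, 1.36, 6.92 and 5.44 CPM in Ercc1 delta/+, against 8.96, 4.56, 6.02 and 13.1 CPM in wild type. In both genes mutant replicates 1 and 2 were the lowest libraries and wild type replicate 4 the highest, and mutant replicate 3 lay inside the wild type range. The highest library had 11.7 times the Chrnb4 level of the lowest, with 24 to 429 counts per library.

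Neither difference passed the test. The log2 fold change of Chrna3 was -0.77 (SE 0.37, 95% interval -1.59 to 0.06, edgeR adjusted p = 0.30), and that of Chrnb4 was -1.12 (SE 0.56, 95% interval -2.38 to 0.14, edgeR adjusted p = 0.319). In the authors' deposited table the log2 fold changes were -0.79 for Chrna3 and -1.11 for Chrnb4, with adjusted p-values of 0.126 and 0.110. Leaving out each library in turn gave -0.97 to -0.49 for Chrna3, the most negative value without mutant replicate 3 and the least without mutant replicate 1. For Chrnb4 it gave -1.62 to -0.79, the most negative value without mutant replicate 3 and the least without wild type replicate 4.

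Both genes are neighbours on chromosome 9, where Chrna5, Chrna3 and Chrnb4 follow each other in the RefSeq annotation. The levels of Chrna3 and Chrnb4 moved together, and for Chrna5 this was not found. Chrna5, at low counts, had a Pearson r of -0.37 with Chrna3 (exact permutation p = 0.384, 0.532 adjusted over 28 pairs). Its r with Chrnb4 was -0.63 (exact permutation p = 0.0959, adjusted 0.224). Over the 8 libraries Pearson's r between Chrna3 and Chrnb4 was 0.895 (exact permutation p = 4.96e-05, 0.00139 adjusted over 28 pairs) and rho was 0.976 (exact permutation p = 0.000397, adjusted 0.00556). Without the 2 farthest libraries r was 0.946, and with the genotype means removed it was 0.836. The log2 ratio of Chrnb4 to Chrna3 was -1.26, -2.41, -0.63 and -0.86 in Ercc1 delta/+ and -0.55, -1.13, -0.78 and -0.55 in wild type. The difference of -0.54 was within the spread (exact two-sided permutation p = 0.229, adjusted 0.571). The ends of Chrna3 and Chrna5 overlap in the annotation, so a share of their reads is uncertain.

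Because Chrna3 and Chrnb4 varied together, the 250 bases before the annotated start of each are shown. They come from RefSeq on GRCm38.p6, each read 5′ to 3′ on the gene's own minus strand. The deposited counts were made on mm9, so these windows serve to show the sequence only. Capitals mark the GC box GGGCGG, searched on both strands, which 32.7% of 32841 promoter windows of this length hold. Windows were found for 6 of the 8 members, the others being Chrna6 and Chrnb3.
Chrna3, chr9:55026563-55026812: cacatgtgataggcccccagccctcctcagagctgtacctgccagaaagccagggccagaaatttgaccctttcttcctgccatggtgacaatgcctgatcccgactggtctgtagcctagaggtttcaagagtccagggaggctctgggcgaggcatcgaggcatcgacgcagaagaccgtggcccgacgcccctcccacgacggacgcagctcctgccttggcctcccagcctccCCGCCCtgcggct
Chrnb4, chr9:55048545-55048794: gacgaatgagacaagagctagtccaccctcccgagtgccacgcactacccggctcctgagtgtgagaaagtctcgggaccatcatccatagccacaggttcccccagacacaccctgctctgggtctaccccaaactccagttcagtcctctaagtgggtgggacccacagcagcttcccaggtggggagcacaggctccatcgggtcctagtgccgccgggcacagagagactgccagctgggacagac

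The windows of Chrna3 and Chrnb4 differ in the GC box, with 1 match before Chrna3 and 0 before Chrnb4. They are alike in base composition, at 63.2% and 61.2% G and C against a median of 52.4% over all windows. This is not particular to the pair: Chrna4 had 74.4%, Chrna7 67.2%, Chrnb2 59.6% and the starts of Chrna5 40% and 65.2%. Each holds 2 matches to the E-box CANNTG, which 66.2% of windows hold, and neither holds the letters AAAGGTCA, which 1.34% of windows hold. Among the other members the GC box had 3 matches before Chrna4, 1 before Chrna7 and 0 before Chrnb2, and 0 and 4 matches in the windows of both annotated starts of Chrna5. The E-box had 0 matches before Chrna4, 2 before Chrna7, 1 before Chrnb2, and 1 and 2 at the starts of Chrna5.

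Chrna3 and Chrnb4 moved with the markers of the medial habenula. All 5 markers on that list were tested and 0 passed; all 5 had negative log2 fold changes, with a median of -0.81. The summed level was 69.4 to 132 CPM in Ercc1 delta/+ and 105 to 202 CPM in wild type. Gpr151, which encodes an orphan receptor of habenular neurons, had 1.53, 1.64, 12.6 and 12.2 CPM in Ercc1 delta/+, against 19.8, 8.18, 13.9 and 28.3 CPM in wild type, and was thus lowest in the same mutant libraries 1 and 2 as Chrnb4.

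Over the 8 libraries Chrnb4 correlated with the mean of the habenular markers at a Pearson r of 0.991 (exact permutation p = 4.96e-05, 0.00516 adjusted over 104) and a rho of 0.976 (exact permutation p = 0.000397, adjusted 0.0297), and r was 0.983 without mutant replicates 1 and 2. For Chrna3 r was 0.940 (exact permutation p = 0.000149, adjusted 0.00774) and rho 0.929 (exact permutation p = 0.00223, adjusted 0.0332), and r was 0.976 without mutant replicates 1 and 2. Of the 14180 genes searched, the one most like Chrnb4 was Gpr151 (0.995), followed by Gm5741 (0.994) and Nrsn2 (0.990). Gpr151 is 1 of the 5 habenular markers, so its rank is not separate from the relation with their mean. A high r is also common in a search this wide, as Prss35 reached 0.983 with Chrna5. For Chrna3 the genes most like it were Cmss1 (0.977), Ctxn2 (0.967) and Ergic3 (0.967).

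**Figure D4:**
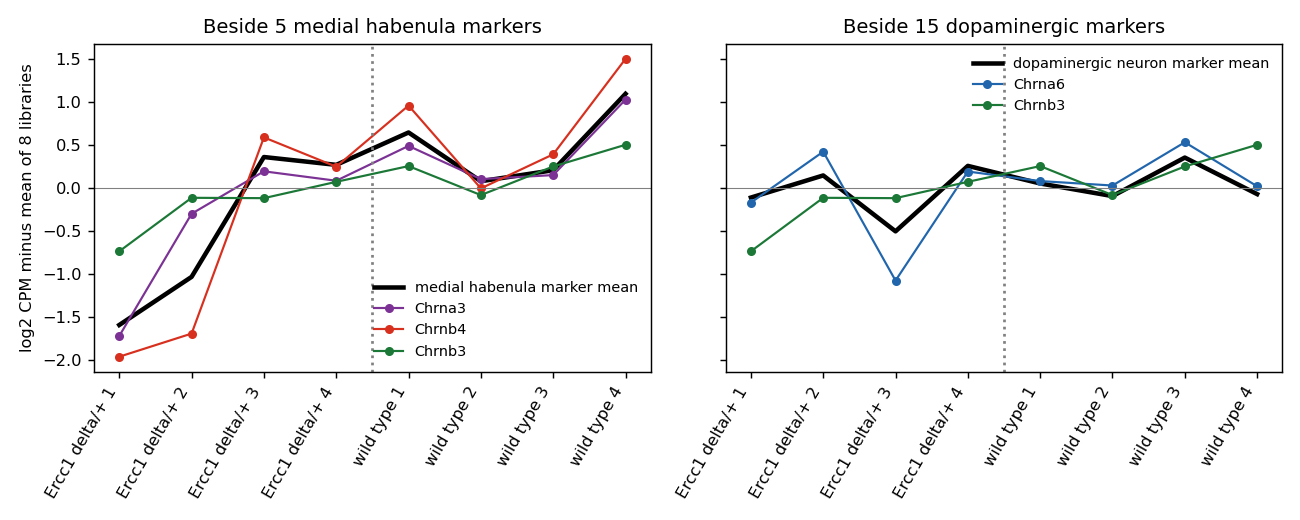
Log2 CPM minus the mean of the 8 libraries (vertical axis) for each library, Ercc1 delta/+ left of wild type, with the mean of 5 medial habenula markers (left, black) beside Chrna3, Chrnb4 and Chrnb3, and the mean of 15 dopaminergic markers (right, black) beside Chrna6 and Chrnb3. Lines only join the values of a gene, since libraries have no order. The habenular mean is lowest in mutant replicates 1 (-1.59) and 2 (-1.04), and the dopaminergic mean in mutant replicate 3 (-0.51).

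Chrnb3 and Chrnb2 also varied with the habenular markers. For Chrnb3 r was 0.884 (exact permutation p = 0.00171, adjusted 0.0254), while its rho of 0.738 missed the threshold (exact permutation p = 0.0458, adjusted 0.191), and r was 0.794 without mutant replicates 1 and 2. For Chrnb2 r was 0.867 (exact permutation p = 0.000446, adjusted 0.0116) and rho 0.952 (exact permutation p = 0.00114, adjusted 0.0297), and r was 0.633 without those libraries. Its r was -0.86 with the cortical, hippocampal and thalamic markers (exact permutation p = 0.00367, adjusted 0.0424), and -0.96 without the 2 farthest libraries. With the cranial motor neuron markers it was 0.829 (exact permutation p = 0.00345, adjusted 0.0424), and with the astrocyte markers -0.91 (exact permutation p = 0.0119, adjusted 0.109). The cranial motor neuron mean rests on 3 tested genes of 5 listed, Isl1, Prph and Calca, which did not move together. In mutant replicate 2, where that mean was lowest, Isl1 was at its lowest (0.623 CPM) and Prph at its highest (7.20 CPM). Without mutant replicates 1 and 2 the r of Chrnb2 with that mean was 0.728. For Chrna6 r with the habenular markers was -0.10 (exact permutation p = 0.797, adjusted 0.888), and rho was -0.17 (exact permutation p = 0.703, adjusted 0.813).

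Among the subunits themselves, Chrnb2 and Chrnb4 had an r of 0.889 (exact permutation p = 0.000322, adjusted 0.00451) and a rho of 0.976 (exact permutation p = 0.000397, adjusted 0.00556), with an r of 0.712 without the 2 farthest libraries. Chrnb3 and Chrna3 had an r of 0.948 (exact permutation p = 0.00179, adjusted 0.0117) and a rho of 0.738 whose adjusted p missed the threshold (exact permutation p = 0.0458, adjusted 0.214). Without the 2 farthest libraries, mutant replicate 1 and wild type replicate 4, that r was 0.626.

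The habenular level was not the only one that differed between libraries. Chrnb4 correlated with the cortical, hippocampal and thalamic markers at an r of -0.93 (exact permutation p = 0.000322, adjusted 0.0112), with a rho of -0.90 whose adjusted p missed the threshold (exact permutation p = 0.00456, adjusted 0.0527), and r was -0.93 without the 2 farthest libraries. With the cranial motor neuron markers Chrnb4 had an r of 0.917 (exact permutation p = 0.00146, adjusted 0.0254) and a rho of 0.952 (exact permutation p = 0.00114, adjusted 0.0297), and r was 0.919 without the 2 farthest libraries. That mean rests on Isl1, Prph and Calca, of which Isl1 and Prph diverged in mutant replicate 2 as given above. With the hypothalamic markers Chrnb4 had an r of 0.717 (exact permutation p = 0.0167, adjusted 0.109) and a rho of 0.881 (exact permutation p = 0.00724, adjusted 0.0685), and r was 0.713 without the 2 farthest libraries. Chrna3 had an r of 0.354 with them (exact permutation p = 0.269, adjusted 0.474) and a rho of 0.857 (exact permutation p = 0.0107, adjusted 0.0796), and r was 0.643 without the 2 farthest libraries. With the cranial motor neuron markers the r of Chrna3 was 0.668 (exact permutation p = 0.0909, adjusted 0.270). Its rho was 0.929 (exact permutation p = 0.00223, adjusted 0.0332), the same as with the habenular markers. Against the cortical, hippocampal and thalamic markers the r of Chrna3 was -0.81 (exact permutation p = 0.0161, adjusted 0.109). The rho was -0.88 (exact permutation p = 0.00724, adjusted 0.0685). These lists vary together over the same 8 libraries, so their correlations are not independent of each other. In all, 9 of the 104 relations with marker lists and 6 of the 28 between subunits had an adjusted p below 0.05 for Pearson's r.

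**Figure D5:**
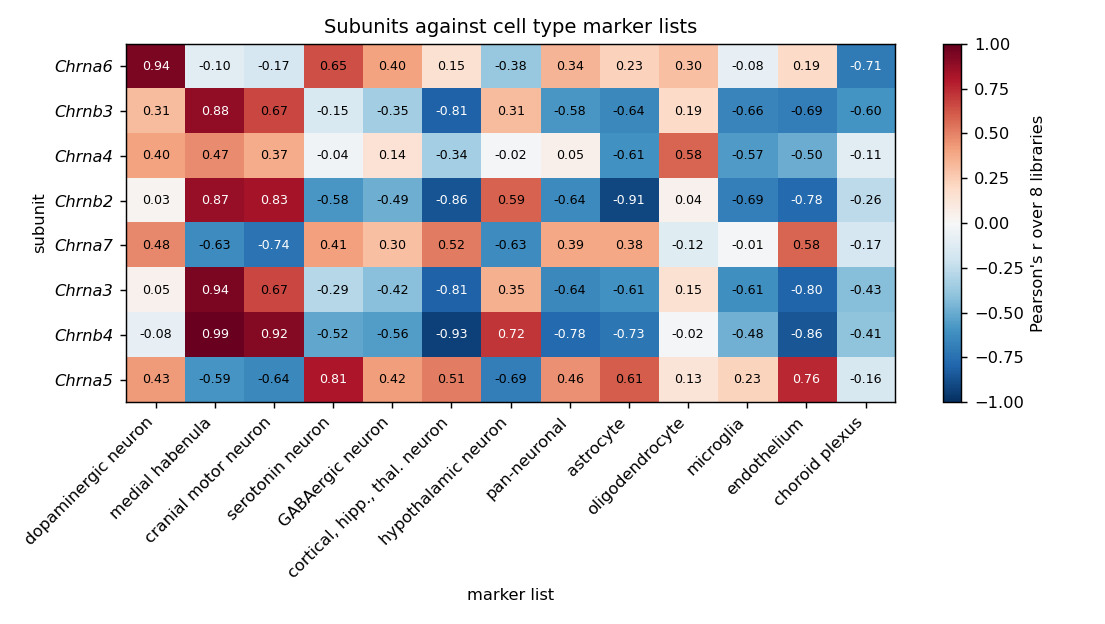
Pearson's r over the 8 libraries between each subunit (rows) and the mean log2 CPM of each marker list (columns), with r printed in each cell. Chrna6 has its highest r with the dopaminergic list (0.94), and Chrnb4, Chrna3, Chrnb3 and Chrnb2 have theirs with the medial habenula list (0.99, 0.94, 0.88 and 0.87).

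The mean of the habenular markers was used as a covariate in the edgeR fit, an alternative chosen after seeing the data. The genotype log2 fold change was then -0.05 for Chrna3 (edgeR adjusted p = 0.931), -0.04 for Chrnb4 (adjusted p = 0.934) and -0.14 for Chrnb3 (adjusted p = 0.738). This covariate correlated with Chrnb4 at a Pearson r of 0.991 and with Chrna3 at 0.940. Values near 0 for both follow from that relation, and the cause of the genotype difference was not tested. Over all alternatives the edgeR, DESeq2 and limma adjusted p ran from 0.203 to 0.931 for Chrna3 and from 0.188 to 0.934 for Chrnb4. Without mutant replicates 1 and 2 together, also chosen after seeing the data, the log2 fold change was -0.36 for Chrna3, -0.41 for Chrnb4 and -0.27 for Chrnb3. In that setting 0 of the 8 subunits passed the edgeR test, but so did 0 genes of the whole table, so the count does not set the subunits apart. The log2 fold changes were also nearer 0 with other terms in the fit. With the cortical, hippocampal and thalamic markers as the covariate, likewise chosen after seeing the data, they were -0.28 for Chrna3, -0.32 for Chrnb4 and -0.21 for Chrnb3, and with the depth term they were -0.49 for Chrna3, -0.59 for Chrnb4 and -0.31 for Chrnb3. With the dopaminergic markers as the covariate the value for Chrna6 was -0.13. For Chrna6 it was -0.50 with the cortical, hippocampal and thalamic covariate, -0.57 with the depth term and -0.51 with the habenular covariate (edgeR adjusted p = 0.531, and 0.408 to 0.972 over all alternatives).

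Chrna5 (NM_176844), the accessory subunit gene, had the lowest mean CPM of the 8 in both genotypes, with 19 to 59 counts per library, although Chrnb4 lay below it in mutant replicates 1 and 2. It had 2.09, 3.34, 0.688 and 1.01 CPM in Ercc1 delta/+, against 1.08, 1.83, 1.85 and 1.65 CPM in wild type. The mutant libraries lay on both sides of the wild type range. Chrna5 had a log2 fold change of 0.12 (SE 0.45, 95% interval -0.89 to 1.13, edgeR adjusted p = 0.913), and its sign changed with the tool, the depth term and the library left out. The genes most like it were Prss35 (0.983), Rsl1 (0.944) and Abhd14a (0.940).

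Other genes of cholinergic signalling were examined as lists, and 0 genes in any of them passed the test (0.0467% of all genes tested did). Of 8 other nicotinic subunit genes, chiefly of muscle and inner ear, 3 were in the table, 1 positive and 2 negative, with a median log2 fold change of -0.07. Chrnb1, the beta subunit gene of muscle, had a log2 fold change of 0.20 (SE 0.22), Chrna2 -0.07 (SE 0.36) and Chrna1 -0.09 (SE 0.50). Chrna9, Chrna10, Chrnd, Chrne and Chrng had no row.

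Of 12 genes for receptor assembly and modulation, 10 were tested, 3 positive and 7 negative, with a median log2 fold change of -0.04. Lypd6, which encodes a membrane-anchored protein that binds nicotinic receptors, had 26.8, 28.3, 28.4 and 28.6 CPM in Ercc1 delta/+, against 34.6, 32.1, 28.6 and 30.4 CPM in wild type. The groups met at about 28.6 CPM, and the log2 fold change was -0.16 (SE 0.07, edgeR adjusted p = 0.277). Lypd1, of the same protein family, had a value of 0.29 (SE 0.19). Ric3 and Tmem35a, chaperone genes needed for alpha7 receptors, stood at -0.07 (SE 0.06) and -0.10 (SE 0.10) on the log2 scale.

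The 7 genes for synthesis, storage and breakdown of acetylcholine were all tested, 4 positive and 3 negative, with a median log2 fold change of 0.12. Chat, whose enzyme makes acetylcholine, had 15.1, 5.38, 16.4 and 13.1 CPM in Ercc1 delta/+, against 5.33, 13.0, 14.1 and 10.8 CPM in wild type, a log2 fold change of 0.22 (SE 0.36). A single library of each genotype was low, mutant replicate 2 and wild type replicate 1. The vesicular transporter gene Slc18a3 had a value of 0.25 (SE 0.25), and the esterase genes Ache and Bche had -0.08 (SE 0.14) and -0.12 (SE 0.19).

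The 5 muscarinic receptor genes, which encode the G protein-coupled receptors for acetylcholine, were all tested, 4 positive and 1 negative, with a median log2 fold change of 0.26. Chrm1, strong in cortex and hippocampus, had 128, 93.9, 41.5 and 75.5 CPM in Ercc1 delta/+, against 25.2, 86.4, 37.5 and 15.2 CPM in wild type. The groups overlapped, and the log2 fold change was 1.05 (SE 0.51, edgeR adjusted p = 0.304). Slc17a7, a marker of cortical, hippocampal and thalamic neurons, had 690, 627, 222 and 332 CPM in Ercc1 delta/+, against 205, 440, 222 and 90.2 CPM in wild type. The list it belongs to was split: 7 of its 9 genes had positive log2 fold changes, while Prkcd and Lef1 were negative. Chrm4 had a log2 fold change of 0.79 (SE 0.47), Chrm2 0.26 (SE 0.16) and Chrm5, the muscarinic receptor gene of dopaminergic neurons, -0.23 (SE 0.20).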

How the data were processed

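Per the labels' protocols, poly(A) RNA of 8 ventral midbrain samples was copied into barcoded libraries, pooled and sequenced in 1 lane, and only RNA of high integrity was used. The submitters' processing notes name TopHat 1.3.1, edgeR and the mm9 build; how reads were counted, and with what treatment of strand and shared reads, is not given in the sources used here. The authors deposited raw counts for 19931 RefSeq transcript rows, with their own log2 fold changes and p-values beside them. No row totals fewer than 31 counts, so the table had been filtered on low values.

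Row identifiers were matched to symbols through a RefSeq table of GRCm38.p6, which served for names, lengths, gene order and promoter windows (19600 rows matched, 331 did not and were kept by identifier). For 2906 genes with more than 1 row the row of highest total was used, and 45 genes with identical counts were merged, which left 15274 genes. The lowest chi-square per degree of freedom between replicates was 11.75, so no library was treated as a copy. At these depths 3 counts equal 0.0962 to 0.164 CPM, which covers counting error only.

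The main test was edgeR 4.0.16 in R 4.3.3, by quasi-likelihood with TMM, filterByExpr (14989 genes) and Benjamini-Hochberg adjustment over all genes with a threshold of 0.05, two-sided. Log2 CPM used a prior count of 2. Ratios and correlations had exact permutation tests over 70 assignments or all pairings of 8 libraries. Alternatives included other scalings and filters, DESeq2 1.42.0, edgeR's exact test and limma-voom (limma 3.58.1), a length and GC offset, a depth term, marker covariates and leaving out each library. The subunits and lists were chosen with earlier results of these data known. Named genes are all 8 subunits, Ercc1, up to 4 genes of smallest p per cholinergic list, Th, Slc6a3, Slc18a2 and the 3 genes most like each subunit. Other genes named are markers shown beside a result.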

Additional observations from a re-analysis of the deposited data

Results flagged for a closer look

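Over the 8 subunits, the highest and the lowest library of each genotype were compared with the rest of its 4 libraries by Dixon's test, which chance passes in about 1 of 20 groups. Of 16 groups 2 passed. Chrna6 in wild type replicate 3, at 16.8 CPM, stood apart from the other wild type libraries, which lay between 11.8 and 12.3 CPM; the gap was 0.899 of the range, against a critical value of 0.829. The same library had the highest wild type level of Th, 67.5 CPM. Chrna4 in Ercc1 delta/+ replicate 1, at 84.2 CPM, stood below the other mutant libraries, which lay between 116 and 119 CPM, with a gap of 0.907 of the range.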

How the results depend on the processing

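In all 24 settings 0 of the 8 subunits passed, with at most 3 at an unadjusted p below 0.05. Settings with 3 include the edgeR exact test, limma-voom and the replicate block. There 2435, 2846 and 2928 of the 14989 genes tested were below it too. In several settings listed below 0 or 1 gene of the whole table passed, so 0 of 8 says little about the subunits there. The same holds for the main test, where 7 of 14989 genes passed. Of 647 alternative values of the 8 subunits, the named cholinergic genes, Th, Slc6a3, Slc18a2 and Ercc1, 609 kept their direction and side of the threshold, 1 newly passed (Ercc1 with DESeq2, adjusted p = 0.0389) and 37 changed sign; the cause was not tested. The genes most like each subunit were not recomputed. The habenular and forebrain covariates and the joint removal of mutant replicates 1 and 2 were chosen after seeing the data. So were a prior count of 0.5 and the offset for the main correlations, and none of the correlations recomputed changed direction or side of the threshold.

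The count over all genes, 7 in the main test, was 33 with RLE scaling, 86 with upper-quartile scaling, 50 with the stricter filter, 538 with the edgeR exact test, 1028 with DESeq2, 52 with limma-voom, 4 with every transcript row, 1 with the length and GC offset, 1 with the depth term, 1 with the dopaminergic covariate, 15 with the forebrain covariate, 0 with the habenular covariate (2195 at an unadjusted p below 0.05 in edgeR) and 0 without mutant replicates 1 and 2 (2202 unadjusted). Leaving out each library gave 0 to 321: without mutant replicates 1 to 4 it was 3, 321, 1 and 0 (2101 unadjusted), and without wild type replicates 1 to 4 it was 2, 1, 1 and 1. With the replicate number as a block it was 0 (2928 unadjusted). The 5 ratios then had adjusted p-values of 0.625 to 1 in a sign-flip test. The unadjusted p of that test cannot go below 0.125, so no ratio could pass there. Deviations of same-numbered libraries correlated at -0.28, 0.17, -0.12 and 0.26, which gave no steady sign of pairing by number. These values cannot decide whether the samples were paired, because RNA of neighbouring regions also differed between libraries.

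Log2 fold changes that changed sign were those of Chrna5 (-0.15 with limma-voom, -0.036 with the block, -0.41 with the depth term, -0.81 with the habenular covariate, -0.53 with the forebrain covariate, -0.93 without mutant replicates 1 and 2), Chrna4 (0.037 with the depth term, 0.0084 with the habenular covariate), Chrnb2 (0.022 with the depth term, 0.074 and 0.042 with the habenular and forebrain covariates, 0.032 without mutant replicates 1 and 2), Ache (0.12, 0.18, 0.16 and 0.10 in the same settings as Chrnb2), Chrna2 (0.094 with limma-voom, 0.024 with the block), Tmem35a (0.0077 with the offset), Chrna1 and Bche (0.11 and 0.016 with the depth term) and Slc6a3 (0.050 with the dopaminergic covariate). Leaving out each library gave ranges that cross 0 for Chrna5 (-0.36 to 0.41), Chrna1 (-0.64 to 0.13), Chrna2 (-0.35 to 0.17), Ache (-0.18 to 0.00034), Bche (-0.23 to 0.025), Chat (-0.0033 to 0.47), Th (-0.27 to 0.049) and Slc6a3 (-0.31 to 0.11). The log2 ratio of Chrna4 to Chrnb2 was 0.016 with the offset and -0.11 to 0.056 without each library, and that of Chrna6 to Chrnb3 ran from -0.035 to 0.47. Counts of 19 to 59 per library limit Chrna5, and 24 to 429 limit Chrnb4.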
